A study of Mus musculus with 2 samples.

Results

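Curated noncoding transcripts are those for which RefSeq keeps a reviewed record with an accession of the NR type, which marks an RNA without a coding sequence. On the 2 arrays analysed here, 1400 gene probes carried such an accession, leaving aside the separate set of long intergenic probes of the array. Of these probes, 1325 could be matched to a named gene, and 1263 lay on an autosome. They stand for 1128 genes, out of 20887 named genes on the arrays. By the annotation, 921 of the 1128 were long noncoding RNAs (lncRNAs), 175 were transcribed pseudogenes, and 15 were coding genes for which the probe names a noncoding transcript variant. The rest were 5 antisense RNAs, 2 unclassified RNAs, and 10 structural RNAs such as ribosomal, spliceosomal and small nucleolar RNAs.

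Both arrays measured TCRαβ+ CD8αα+ intraepithelial lymphocytes (IELs), T cells that sit between the epithelial cells of the gut, sorted from the small intestine of C57BL/6 mice of both sexes at 8–12 weeks. The Control group had the genotype Rbpjf/f, in which loxP sites flank part of Rbpj but no Cre is named in the label, and the RFF4 group had CD4-Cre Rbpjf/f. The study's text instead describes its controls as Rbpj+/+ mice that carry CD4-Cre, and which of these the Control array holds could not be settled. Rbpj is the DNA-binding protein through which Notch receptors switch on their target genes, so the comparison asks which transcripts depend on Notch signaling in these cells. The CD4-Cre transgene is active in all T cells that pass through a stage expressing CD4, and not in IELs alone. In each group, RNA from several isolations was pooled and hybridized to 1 array, so no replicate check, standard error or test across samples can be given, and every value below describes these 2 pools.

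Transcripts of this kind work as RNA. Small nucleolar RNA (snoRNA) host genes carry snoRNAs, which guide chemical modification of ribosomal and spliceosomal RNA, in their introns. Their spliced RNA is left over after the snoRNA is cut out, and for several hosts it is known to be short-lived because translating ribosomes send it to nonsense-mediated decay. Other lncRNAs stay in the nucleus and hold nuclear bodies together, act in cis on neighboring genes, or serve as precursors of microRNAs. Structural RNAs mostly lack a poly(A) tail, and the oligo(dT)-primed labeling used here captures such RNAs poorly.

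Because 11 of the 12 listed host genes were lower on the RFF4 array, the 300 bases around the annotated starts of the 3 hosts with the lowest RFF4 level relative to Control are shown first, with those of Malat1, one of the most abundant nuclear lncRNAs in many cells. The sequences run from 250 bases before to 50 bases after the start, 5′ to 3′, and come from RefSeq (GRCm38.p6). Capitals mark TGGGAA or its complement TTCCCA, the core letters of the site that Rbpj binds.
Snhg12, chr4:132308428-132308727, + strand: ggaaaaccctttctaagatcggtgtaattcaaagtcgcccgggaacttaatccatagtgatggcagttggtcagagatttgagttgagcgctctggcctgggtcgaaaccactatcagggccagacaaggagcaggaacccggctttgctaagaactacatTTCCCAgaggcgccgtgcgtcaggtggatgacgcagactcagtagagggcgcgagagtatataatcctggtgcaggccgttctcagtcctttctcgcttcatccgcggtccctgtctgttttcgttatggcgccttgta
Snhg16, chr11:116671410-116671709, + strand: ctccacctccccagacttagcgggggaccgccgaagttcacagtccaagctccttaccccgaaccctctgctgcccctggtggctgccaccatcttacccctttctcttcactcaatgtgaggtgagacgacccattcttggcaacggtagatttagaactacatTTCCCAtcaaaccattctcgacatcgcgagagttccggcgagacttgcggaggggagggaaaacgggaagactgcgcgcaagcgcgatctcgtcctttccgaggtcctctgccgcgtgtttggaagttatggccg
Dancr, chr5:74092810-74093109, + strand: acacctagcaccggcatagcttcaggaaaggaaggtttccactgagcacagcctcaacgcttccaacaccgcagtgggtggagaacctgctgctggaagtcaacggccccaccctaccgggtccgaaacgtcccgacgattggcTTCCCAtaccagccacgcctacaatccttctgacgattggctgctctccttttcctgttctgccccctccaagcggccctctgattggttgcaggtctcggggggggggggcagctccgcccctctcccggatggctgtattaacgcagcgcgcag
Malat1, chr19:5802623-5802922, - strand: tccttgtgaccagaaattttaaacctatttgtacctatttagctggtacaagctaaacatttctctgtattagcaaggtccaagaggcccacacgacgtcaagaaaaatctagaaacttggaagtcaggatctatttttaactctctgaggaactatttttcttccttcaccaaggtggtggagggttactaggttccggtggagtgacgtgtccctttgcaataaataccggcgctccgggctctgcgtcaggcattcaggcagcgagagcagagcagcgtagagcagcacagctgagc
Each of the 3 hosts held 1 match, and Malat1 held 0. A match to 6 letters is common: searched on both strands, it was found in 28.3% of the 27025 genes that have such a sequence. It was found in 51 of 254 noncoding genes that have a sequence and a difference (20.1%). Of the 11 measured hosts with a sequence 4 had it, namely the 3 shown and Snhg18, which was 1.73-fold higher. It was found in 7 of 30 noncoding genes with a level past 2-fold lower on the RFF4 array, and in 5 of 26 past 2-fold higher. A match is a description of the letters and does not show binding.

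Many snoRNA hosts are known to start with a run of C and T, the 5′ terminal pyrimidine tract that ties translation to growth signals. To show how their starts vary, 80 bases (30 before the annotated start, 50 after it) are given for 5 hosts at different places in the range of differences, with the longest run of C and T that touches the 20 bases on either side of the start in capitals.
Snhg1, chr19:8723457-8723536, + strand: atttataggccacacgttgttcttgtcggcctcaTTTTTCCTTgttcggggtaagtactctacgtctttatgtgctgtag
Snhg5, chr9:88522848-88522927, - strand: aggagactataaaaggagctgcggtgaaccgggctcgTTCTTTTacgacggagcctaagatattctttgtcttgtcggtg
Snhg10, chr12:105032230-105032309, - strand: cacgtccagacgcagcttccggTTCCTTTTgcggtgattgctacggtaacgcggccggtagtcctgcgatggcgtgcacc
Snhg15, chr11:6528711-6528790, - strand: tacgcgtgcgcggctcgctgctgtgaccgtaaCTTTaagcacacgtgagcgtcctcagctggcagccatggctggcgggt
Snhg18, chr15:32244613-32244692, - strand: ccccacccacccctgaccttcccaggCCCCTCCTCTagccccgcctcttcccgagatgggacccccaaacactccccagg
The run was 9 bases long in Snhg1, 7 in Snhg5, 8 in Snhg10, 4 in Snhg15 and 10 in Snhg18. Such runs are frequent, since 14.9% of all annotated starts had one of at least 9 bases and 30.6% one of at least 7. Of the hosts shown first, Dancr had a run of 10 bases, Snhg12 one of 9 and Snhg16 one of 8. Hosts with 10 bases thus included both Dancr, at a difference of -1.40, and Snhg18, at 0.79.

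The sets of spots behind these values were not equally bright. Of 59305 gene spots, 57.2% were well above background on the Control array and 49.7% on the RFF4 array, and the median signal of those spots was 9.44 and 5.75 times the local background. Levels are given on the log2 scale relative to each array's 75th percentile of gene spots, so a level of 0 equals that percentile, and differences are RFF4 minus Control. Over all named genes the median difference was -0.01. If the 8 spike-in controls above background were set equal instead, the median of all named genes moved by -1.09. Each direction below is therefore relative to the bulk of genes, and any difference between 0 and 1.12 is below 0 with spike-in scaling. The genotype could not be checked on Rbpj itself, and the RFF4 array here means the array so labelled. Its 2 probes were higher on the array labelled RFF4 by 0.32 and 0.82 on the log2 scale, and it is not known here whether they lie in the deleted part. The Notch target genes Dtx1 and Heyl were lower there, with differences of -3.63 and -3.80. T cell markers were high on both arrays (8 of 8 well above background, median difference 0.22). Markers of other cells were higher on the RFF4 array: all 15 epithelial markers (median difference 1.59) and all 6 of Paneth and goblet cells (1.76). The same was seen for all 11 markers of macrophages and dendritic cells that had a difference (2.42) and for 4 of 5 of B and plasma cells (1.68). The macrophage marker Fcgr1 was well above background on the Control array alone and had no difference to give.

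Of the 1128 noncoding genes, 470 were well above background on at least 1 array. This was 41.1% of them on the Control array and 33.2% on the RFF4 array, against 69.0% and 64.6% of coding genes. Both arrays detected 369, the Control array alone 95, and the RFF4 array alone 6, while 658 were dim on both. For a gene seen on 1 array, the difference is a bound, set by the lowest signal that counted as well above background on the dim array. Such a bound could be given for 38 of the 95 and for all 6, which leaves 413 genes with a difference. The detected members were dim compared with coding genes: the median level of those detected on the Control array was -2.18 for noncoding and 0.81 for coding genes. Levels of different probes are not strictly comparable, so these medians describe the signal available for each group.

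**Figure D1:**
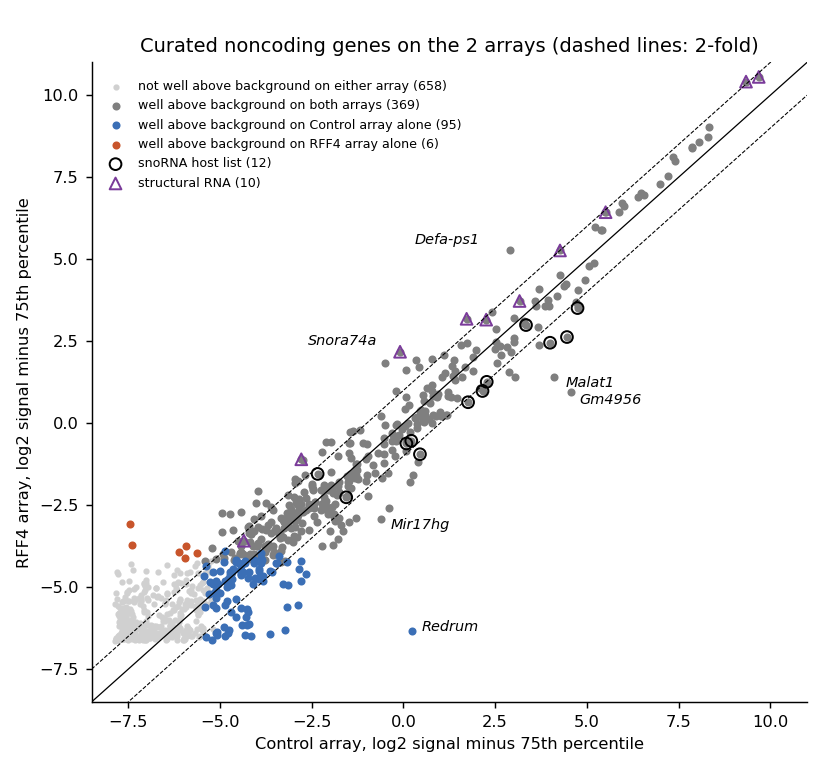
Level of each of the 1128 curated noncoding genes on the Control array (horizontal axis) and on the RFF4 array (vertical axis), as log2 signal minus the 75th percentile of that array. Each point is 1 gene, open circles mark the 12 listed snoRNA hosts, triangles the 10 structural RNAs, and dashed lines a 2-fold difference. Hosts lie mostly under the diagonal, triangles above it, and Redrum stands far below.

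Past 2-fold, 43 of the 413 genes had a lower level on the RFF4 array and 42 a higher one. Over all 13513 named genes with a difference, 5.05% were lower and 12.3% higher by this measure. The noncoding genes had 10.4% and 10.2%, so a larger share of them was lower and a somewhat smaller share higher. The split moved with the scaling: the noncoding counts were 51 lower and 32 higher with median scaling and 52 and 34 with cyclic loess. For all named genes median scaling gave 7.98% lower and 9.68% higher. Past 4-fold they had 5 lower and 5 higher, 1.21% in each direction, beside 0.585% and 1.85% of all named genes. Their median difference was -0.05, next to -0.01 for coding genes and 0.02 for the 5292 long intergenic probes with a difference. Among these long intergenic probes 8.33% were lower and 12% higher past 2-fold.

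Part of the count of lower genes rests on dim signals. Both arrays detected 32 of the 43, and the other 11 are bounds. With a model-based background correction (normexp), which shrinks dim signals, 21 genes were past 2-fold lower, of which 20 were among the 43: 19 of the 32 and 1 of the 11. The share lower past 2-fold was then 5.56% of the noncoding genes and 3.67% of all named genes. In the brightest bin of genes detected on both arrays, with a mean level above 0, 13 of 131 noncoding genes (9.92%) were lower past 2-fold and 10 (7.63%) higher. Among 7998 coding genes of that bin the shares were 3.91% and 6.55%. In the dimmest bin, below a mean level of -2, they were 6.33% and 12.0% of 158 noncoding genes, and 4.20% and 25.3% of 2189 coding genes.

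The snoRNA host genes were mostly lower. All 12 listed hosts with a probe were well above background on both arrays. Of these, 11 had a lower level on the RFF4 array and 7 were past 2-fold, beside the 5.05% of all named genes lower past 2-fold. None was past 2-fold higher. Their median difference was -1.07. In contrast, the 280 coding genes that carry a snoRNA within their span had a median difference of -0.05, with 13 lower and 21 higher past 2-fold.

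Snhg12, which carries 4 snoRNAs including Snora44 and Snora61, had a level of 4.46 on the Control array and 2.63 on the RFF4 array, a 3.56-fold lower value. Snhg16, the host of the Snord1 family, had levels of 4.0 and 2.45, which is 2.92-fold lower. A dimmer second Snhg16 probe had a difference of -2.77, against -1.54 for the brighter one, so both probes were lower but differed by 1.23. Dancr, an lncRNA known for holding progenitor cells in an undifferentiated state and host of Snora26, had levels of 0.45 and -0.95 (2.63-fold lower).

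Snhg15 had levels of 4.75 and 3.51, a 2.35-fold lower value. Snhg1, one of the hosts with the most annotated snoRNAs, had levels of 2.16 and 0.98 (2.26-fold lower). Snhg5 had levels of 1.76 and 0.64, which is 2.18-fold lower. All 3 were brighter than the 75th percentile on both arrays, and their differences under normexp were -1.39, -1.23 and -1.17. Snhg3, host of both Snora73 copies, had levels of 2.27 and 1.26 and lay at the threshold, with a difference of -1.01. Under quantile normalization its difference was -0.96 and 6 hosts were past 2-fold lower.

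The other 5 listed hosts were within 2-fold. Snhg10, listed as a host although the annotation used here places no snoRNA within its span, had a difference of -0.75. Snhg7 and Snhg17 each had one of -0.70. Under normexp that of Snhg7 was -0.096. Snhg6 had levels of 3.34 and 2.99, a difference of -0.35 that was -0.56 under normexp. Snhg18 had levels of -2.34 and -1.55 and was 1.73-fold higher, although this direction turned under spike-in scaling, where its difference was -0.33. With that scaling 12 of 12 hosts were lower and their median was -2.19, where that of all named genes was -1.10.

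A second set of hosts was found by annotation, as lncRNAs with a snoRNA inside their span. It held 23 genes, of which 15 were measured and 4 of these were not on the list. 2410006H16Rik, which spans Snord49a, Snord49b and Snord65, had levels of 4.71 and 3.69 (difference -1.02). 1110038B12Rik, with Snord52, had a difference of -0.71. On the other side, 9330159M07Rik had a difference of 0.39, and 4833422C13Rik had levels of 0.77 and 1.97, a 2.30-fold higher value. Together with the list, 13 of 16 measured hosts had a lower level on the RFF4 array, 8 of them past 2-fold, and 1 was past 2-fold higher. Of all 13513 named genes with a difference, 6906 were lower, 5.05% of all past 2-fold, and 12.3% were past 2-fold higher. The 8 dim members of the second set were not well above background on either array.

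**Figure D2:**
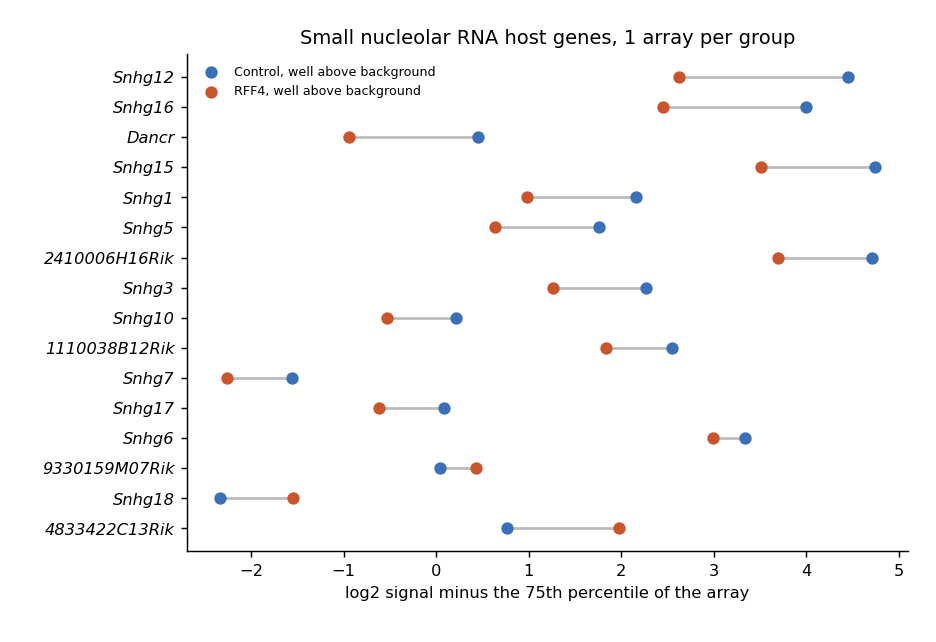
Level of the 16 measured snoRNA host genes (12 listed, 4 found by annotation) on each array, as log2 signal minus the 75th percentile of the array. Blue points are the Control array, orange points the RFF4 array, 1 array each, ordered by difference. In 13 rows, from Snhg12 to Snhg6, the orange point lies to the left.

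Genes that act on the products of these hosts had smaller differences. Of 8 proteins of the snoRNA particles, 7 were within 2-fold, and their median difference was 0.13. Fbl, the methyltransferase of box C/D particles, had a difference of 0.14 and Dkc1, the pseudouridine synthase of box H/ACA particles, one of 0.12. The exception was Nop56, a core protein of box C/D particles whose gene itself carries snoRNAs, with levels of 5.41 and 4.32 (difference -1.09). Nop58 had a difference of -0.54. Of 11 factors of nonsense-mediated decay that had a difference, 10 had a lower level, none past 2-fold in either direction, with a median of -0.51. Smg1, the kinase of this pathway, had a difference of -0.78 and Upf1, its helicase, one of 0.30. Ribosomal protein genes, many of which carry snoRNAs and the same pyrimidine tract, were higher in 79 of 80 (median 0.55). They were bright, with median levels of 8.00 on the Control array and 8.55 on the RFF4 array. With spike-in scaling any difference under 1.12 falls below 0, so this direction too is relative to the bulk of genes.

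The list of nuclear and immune lncRNAs held Redrum, Malat1 and Neat1, all past 2-fold lower. Redrum, an lncRNA named for its part in red cell maturation, had a level of 0.25 on the Control array and was not well above background on the RFF4 array, where its measured signal was -6.32. It was at least 23.3-fold lower, a log2 bound of -4.54, which was -2.13 under normexp. Red cell genes had the opposite direction. Of 7 erythroid markers with a probe, 4 were well above background and these were all higher on the RFF4 array, with a median difference of 1.13. The defining red cell gene Klf1 was not well above background on either array. The coding gene nearest to Redrum, Zfp608, had levels of -4.13 and -2.62, so it was higher by 1.51.

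Malat1, an lncRNA of nuclear speckles, had levels of 4.11 and 1.40, a 6.54-fold lower value. Neat1, its neighbor on chromosome 19 and the scaffold of paraspeckles, had levels of 3.70 and 2.37 (2.51-fold lower). Malat1 and Neat1 had 1 probe each. Under normexp the difference of Malat1 was -2.65 and that of Neat1 was -1.43, close to the values above.

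The other members of this list that both arrays detected were within 2-fold. Norad, a cytoplasmic lncRNA that binds Pumilio proteins, had levels of 3.25 and 3.06, and its 4 probes had differences between -0.50 and 0.25. Pvt1, which lies beside Myc, had levels of 1.40 and 1.33. Tug1 had a difference of -0.53 for its brightest probe, and its other probes had -0.30 and 0.30. The second probe of Pvt1 had a difference of 0.08, against -0.07. Lockd, which lies beside Cdkn1b, had a difference of 0.53. Morrbid, known from the survival of myeloid cells, had levels of -2.93 and -2.34. Crnde was seen on the Control array alone, with a bound of -0.67, so whether it was past 2-fold lower cannot be told. In all, 9 of the 11 listed were measured, 7 had a lower level, and 3 were past 2-fold lower, beside 5.05% of all named genes.

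Mir17hg is the transcript from which the microRNAs of the miR-17-92 cluster are cut, a set known for promoting the growth of lymphocytes. It had levels of -0.60 and -2.92, a 4.98-fold lower value, and its difference under normexp was -1.17. To show what this transcript stands for, the mature microRNAs of the cluster are given from RefSeq (GRCm38.p6, chromosome 14, + strand), with the seed, bases 2 to 8, in capitals.
mmu-miR-17-5p: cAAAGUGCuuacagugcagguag
mmu-miR-20a-5p: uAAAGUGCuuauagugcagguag
mmu-miR-18a-5p: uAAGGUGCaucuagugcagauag
mmu-miR-19a-3p: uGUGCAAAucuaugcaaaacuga
mmu-miR-19b-3p: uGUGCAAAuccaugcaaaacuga
mmu-miR-92a-3p: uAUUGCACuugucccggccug
miR-17-5p and miR-20a-5p share a seed, as do miR-19a-3p and miR-19b-3p, while miR-18a-5p and miR-92a-3p each have their own. The annotated span of Mir17hg begins within the cluster: of its 6 hairpins, 4 lie before the annotated start, 1 across it and 1 inside the span. For that reason its start region is not shown as a promoter. The array held no probe analysed here for the mature forms, and the level of the host transcript need not follow theirs.

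Only 2 other microRNA hosts of the 8 listed were measured. Mir22hg had levels of 0.17 and -0.28. Dleu2, which carries the miR-15a and miR-16-1 hairpins, had levels of -1.98 and -1.48 and was 1.42-fold higher, a direction that turned under spike-in scaling (-0.62). Neither was past 2-fold.

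Of 8 listed imprinted transcripts, 4 were measured and all had a lower level. Airn, which silences its imprinted neighbors on chromosome 17, had levels of 1.47 and 0.76 (difference -0.71), and its dimmer second probe was past 2-fold lower at -1.19. Kcnq1ot1, which does so on chromosome 7, had levels of -0.53 and -1.22, but its dimmer second probe had a difference of 0.16. Peg13 had levels of 4.43 and 4.23. Igf2os, the antisense partner of Igf2, was detected on the Control array alone and was at least 2.73-fold lower, with no difference left to give under normexp. Igf2 itself had levels of -4.24 and -3.90.

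**Figure D3:**
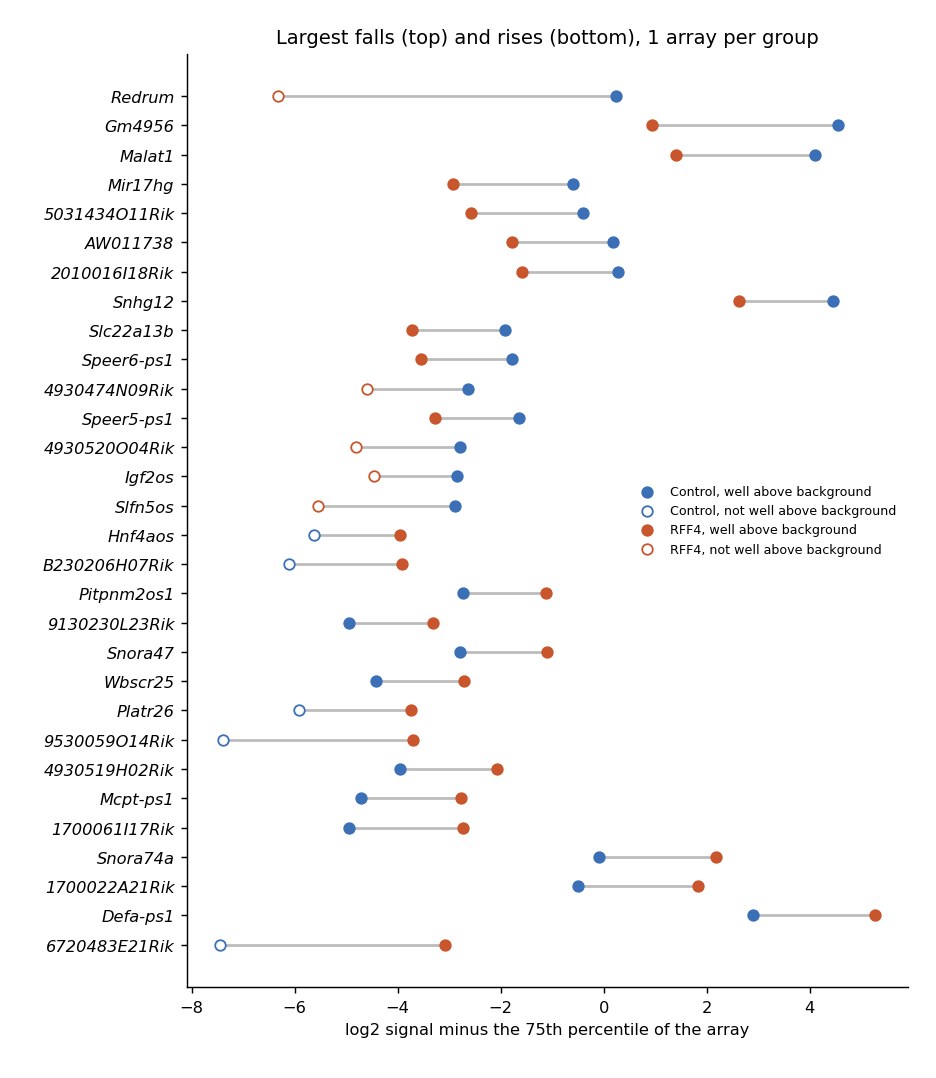
Level on each array of the 15 members with the largest falls (top) and the 15 with the largest rises (bottom), as log2 signal minus the 75th percentile of the array, 1 array per group. Filled points are well above background and open points are not, so a line that ends in an open point gives only a bound. Redrum has the longest line, and among lines with filled points at both ends those of Gm4956 and Malat1 are the longest.

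Among transcribed pseudogenes, 93 had a difference, with a median of 0.04, and 7 were lower and 8 higher past 2-fold, where all named genes had 5.05% and 12.3%. Gm4956 had levels of 4.56 and 0.94, a 12.3-fold lower value and the largest among the noncoding genes detected on both arrays. The coding gene nearest to it, Gsta3, had levels of -1.73 and -0.79, in the opposite direction. Slc2a4rg-ps had levels of 3.04 and 1.41 (difference -1.63), and Pisd-ps1 had 4.75 and 3.58 (-1.17). The related pseudogenes Speer6-ps1 and Speer5-ps1 were 3.37-fold and 3.13-fold lower, and the noncoding variant of Speer1 had a difference of -1.60. These Speer genes resemble each other in sequence, so their probes may share targets. Under normexp the differences of Speer6-ps1 and Speer5-ps1 were -0.36 and -0.49, within 2-fold, and Slc22a13b moved from -1.80 to -0.30 likewise. Among the brightest members on both arrays were the pseudogenes Gm8580, Gm6548 and Gm5523, higher by 0.69, 0.41 and 0.54, and all 3 were lower with spike-in scaling. Under quantile normalization Gm8580 had a difference of 0.083, Gm6548 one of -0.17 and Gm5523 one of -0.048.

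Several less studied lncRNAs were also lower. 5031434O11Rik, which overlaps Setd7, had levels of -0.39 and -2.58, a 4.56-fold lower value whose difference was -1.36 under normexp. Setd7 had a difference of -0.35. AW011738 had levels of 0.18 and -1.78 (3.89-fold lower), with a difference of -1.36 under normexp and of -2.59 for its second probe. It overlaps Perm1, which was detected on the Control array alone with a bound of -2.36. 2010016I18Rik had levels of 0.27 and -1.58 (3.61-fold lower, with a difference of -1.43 under normexp), and its overlapping gene Dennd2d had a difference of -0.15. The bounds of 4930474N09Rik, 4930520O04Rik and Slfn5os were 3.14-fold, 2.85-fold and 2.66-fold. Under normexp, 4930474N09Rik and 4930520O04Rik had differences of -0.043 each, and Slfn5os had no difference left to give.

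The higher genes included the structural RNAs as a group. All 10 members annotated as ribosomal, spliceosomal, small nucleolar, RNase MRP or telomerase RNA were measured, and all 10 were higher on the RFF4 array with the 75th percentile, 4 of them past 2-fold. Their median difference was 0.96, beside 12.3% of all named genes higher past 2-fold. With spike-in scaling the direction turned for most, with 3 of 10 higher and a median of -0.16, where that of all named genes was -1.10.

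Snora74a, a box H/ACA guide RNA on chromosome 18, had levels of -0.09 and 2.18 and was 4.82-fold higher. Snora47, of the same class, had levels of -2.78 and -1.10 (3.21-fold higher). Rmrp, the RNA of the RNase MRP complex that cuts precursor ribosomal RNA, had levels of 1.72 and 3.18, a 2.75-fold higher value. These were the 3 structural RNAs that were still higher when spike-ins were set equal, by 1.15, 0.56 and 0.34. Matr3, the coding gene nearest to Snora74a, had a difference of -0.54, and Zbed3, which Snora47 overlaps, one of -0.17.

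Rn28s1, the 28S ribosomal RNA, had levels of 9.34 and 10.4, a 2.11-fold higher value whose difference was 0.14 under quantile normalization and -0.045 with spike-in scaling. Rn4.5s had levels of 9.68 and 10.6 and was the brightest member on both arrays. Its difference of 0.87 was 0.00019 under quantile normalization and 0.19 under cyclic loess. Of the spliceosomal and related RNAs, Rnu1b6 (U1) had a difference of 0.92, Rnu2-10 (U2) one of 0.90 and Rnu12 (U12, of the minor spliceosome) one of 0.56. Rnu3b1, the U3 RNA of ribosomal RNA processing, had levels of 4.27 and 5.27. Terc, the template RNA of telomerase, had levels of -4.35 and -3.58. For each of these 7 RNAs the difference was below 0 with spike-in scaling. How much of these signals comes from RNA primed without a poly(A) tail was not tested.

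**Figure D4:**
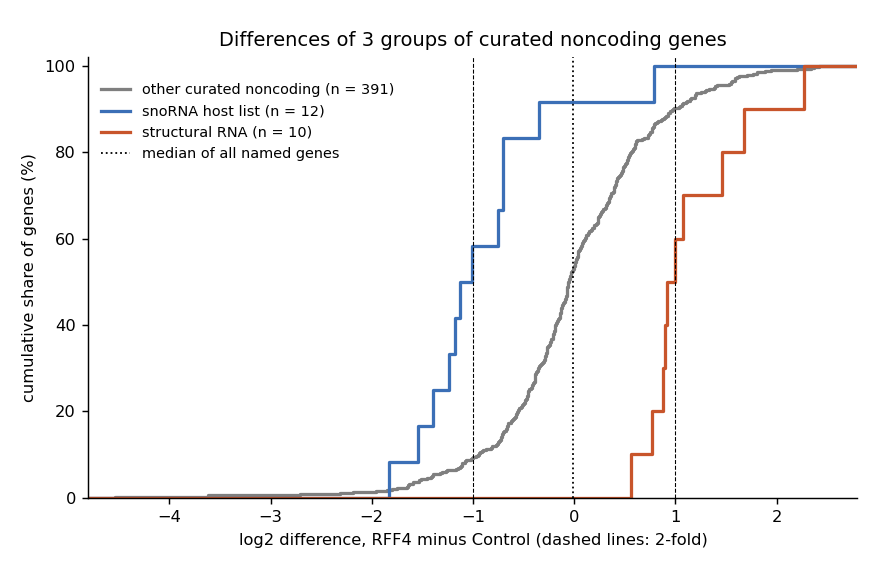
Cumulative share of genes (vertical axis, %) against the log2 difference RFF4 minus Control (horizontal axis) for the 12 listed snoRNA hosts, the 10 structural RNAs and the 391 other curated noncoding genes with a difference. Dashed lines mark 2-fold and the dotted line the median of all named genes, -0.01. The host curve lies mostly left of the other genes and the structural curve mostly to the right.

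Some higher members, picked after their values were seen, lie beside or resemble genes known from gut epithelium. Defa-ps1, a pseudogene of the α-defensins that Paneth cells make, had levels of 2.90 and 5.27, a 5.16-fold higher value. The nearest coding gene, the defensin Defa39, had levels of 3.56 and 6.00, with a similar difference of 2.43. As defensin genes are nearly identical, their probes may share targets. Wbscr25, which overlaps the epithelial tight junction gene Cldn3, had levels of -4.42 and -2.71, and Cldn3 had a difference of 1.33. Btnl5-ps, of the butyrophilin-like genes, had a difference of 1.20, and Btnl4, seen on the RFF4 array alone, a bound of 2.32. Plut, which overlaps the duodenal transcription factor gene Pdx1, had a difference of 1.11, and Pdx1, also seen on the RFF4 array alone, a bound of 1.58. Hnf4aos, antisense to the enterocyte factor gene Hnf4a, was detected on the RFF4 array alone and was at least 2.94-fold higher. The difference of Wbscr25 was 1.06 under normexp, that of Hnf4aos 1.17, and that of Plut 0.85, within 2-fold. With the spike-ins set equal the difference of Plut was -0.011. The epithelial markers, 15 of 15 higher with a summed linear level of 223 on the Control array and 675 on the RFF4 array, moved in the same direction. So did those of Paneth and goblet cells, at 99.5 and 349. The part of such cells in these results was not tested, and in pooled RNA a change in cell share and a change per cell cannot be told apart.

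The other large rises were mostly of dim genes. 1700022A21Rik had levels of -0.50 and 1.84 (5.07-fold higher). 1700061I17Rik, 4930519H02Rik and 9130230L23Rik were dim, between -4.95 and -3.95 on the Control array, and had differences of 2.20, 1.89 and 1.63. Mcpt-ps1, a pseudogene of the mast cell proteases, had levels of -4.71 and -2.77, and the gene it overlaps, Cma2, had a difference of 1.08. Pitpnm2os1 was 3.05-fold higher, while Pitpnm2 on the opposite strand had levels of 2.45 and 1.19, a difference of -1.26. Detected on the RFF4 array alone, 6720483E21Rik was at least 5.35-fold higher, 9530059O14Rik at least 3.50-fold, Platr26 at least 3.41-fold and B230206H07Rik at least 3.01-fold. These bounds depend on the background correction: under normexp the differences were 1.30, 1.24, 1.09 and 1.13, and with the mean of all probes that of Platr26 was 0.40, within 2-fold. Under normexp 1700061I17Rik and 4930519H02Rik had differences of 1.25 and 1.24, that of Mcpt-ps1 stayed past 2-fold but was smaller, and 9130230L23Rik was within 2-fold at 0.98. With all spike-ins set equal, 5 of the 42 remained past 2-fold higher, namely Snora74a, 1700022A21Rik, 1700061I17Rik, Defa-ps1 and 6720483E21Rik.

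Transcripts named as antisense or opposite strand were few among the detected genes. Of 75, 28 were detected and 24 had a difference, with 3 lower and 3 higher past 2-fold and a median of 0.04, where all named genes had 5.05% lower and 12.3% higher. Fbxl12os, the brightest of them on both arrays, had levels of 3.95 and 3.74. Sp3os had levels of 1.05 and 1.40. The range of their differences was -1.45 to 1.61.

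The nearest coding gene was compared for all members where both had a difference, 313 pairs. Of the 38 lower past 2-fold, 3 had a nearest coding gene that was also past 2-fold lower, next to 4.88% of coding genes. They were AW011738 with Perm1, A930001A20Rik with Car2, and 6330407A03Rik with Lyn. Under normexp A930001A20Rik was within 2-fold, with a difference of -0.48 in place of -1.53. Of the 29 higher past 2-fold, 8 had a nearest coding gene past 2-fold higher, next to 12.4% of coding genes. Besides those named above, they included G630025P09Rik with Tmem102, 4930515L03Rik with Plxdc2, and B230206H07Rik with Eps8l2. In 5 of these 8 pairs, the annotated spans overlap, and the strand of each probe was not checked. Among 51 pairs in which a coding gene starts within 1000 bases on the opposite strand, facing away, 4 noncoding genes were lower and 2 higher past 2-fold, and 0 of those coding genes moved past 2-fold with them.

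**Figure D5:**
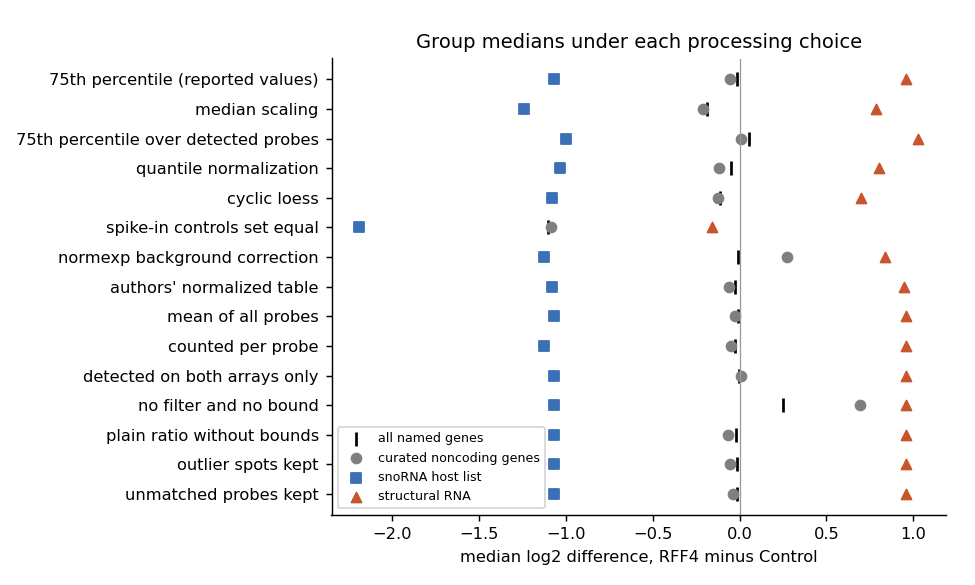
Median log2 difference, RFF4 minus Control (horizontal axis), of all named genes, all curated noncoding genes, the listed snoRNA hosts and the structural RNAs under each processing choice (vertical axis). Each symbol is 1 median from the same 2 arrays. Host medians lie left of all named genes and structural medians right of them in every row, while setting the spike-ins equal moves all 4 to the left.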

How the data were processed

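Cy3-labelled RNA of 2 pools was hybridized to 2 Agilent SurePrint G3 mouse arrays on 1 slide. Per the file headers, Agilent Feature Extraction 10.7.1.1 made the deposited intensity values, background-subtracted on a linear scale. The authors' normalized table (GeneSpring, settings not given in the sources used here) holds other values, centered per probe on a log2 scale. It equalled the scanner ratios up to a constant and served as an alternative.

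Control and outlier spots were removed, log2 signals reduced by each array's 75th percentile of gene spots, and spots averaged per probe. Detection of a probe required that 50% or more of its spots were marked as well above background by the software. The brightest probe stood for a gene. Genes detected on 1 array received a bound. Called means past 2-fold, with 4-fold beside it, since 1 array per group allows no test.

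Probes were named through RefSeq accessions (GRCm38.p6 table). Of 1400 probes, 75 were unmatched and left out, as were 60 on chromosome X, 1 on Y and 1 unplaced. The files follow an mm9 design, so only sequences carry coordinates. Members and lists were chosen with earlier results of these data known. Named are the 10 largest falls and rises with up to 5 bounds each way, all measured snoRNA hosts, Redrum, up to 6 members of each other list, the brightest members and neighbors of the first. Genes outside this rule were named after their values were seen. The hosts found by annotation, the class of structural RNAs, the coding snoRNA hosts and the ribosomal protein genes were defined after seeing the data.

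The alternatives were other scalings, quantile and cyclic loess normalization, spike-ins set equal, normexp (offset 50), the deposited table, and other rules for probes, filters and bounds. Moves of a log2 difference by under 0.127 were treated as no change. This is the technical SD of a difference from probes with repeated spots (260 and 234 probes). This SD covers technical error within an array only. Python 3.11.15 (numpy 2.4.6, pandas 2.3.3), R 4.3.3 with limma 3.58.1, and matplotlib 3.10.9 were used. The steps were tested on simulated data, a pair of arrays with 4 sets of 50 changed probes. Of the probes changed by -1.5 on the log2 scale, 94% were recovered past 2-fold, of those changed by -2, 96%, and of both raised sets, 100%. The changed probes were all well above background on the Control array, and both simulated arrays had the same background cutoff after scaling. On the real arrays the lowest level well above background was -5.51 for Control and -4.29 for RFF4. The recovery of falls in dim genes under these unequal cutoffs was therefore not tested. Some genes are not reported here.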

Additional observations from a re-analysis of the deposited data

How the results depend on the processing

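With 1 array per group, no array could be left out, and depth is not counted on arrays. No paired analysis was possible because each group has 1 sample. Setting the spike-ins equal gave 255 noncoding genes past 2-fold lower and 5 higher, a median of -1.08, and a host median of -2.19. Over all named genes that scaling gave 56.7% lower and 1.39% higher, in place of 5.05% and 12.3%. Of the 85 noncoding genes past 2-fold, 7 turned direction with it, all from a value of 1.12 or less, among them Rn28s1, to -0.045, and Plut, to -0.011. Median scaling gave a median of -0.21 and a host median of -1.24. Normexp gave 21 lower genes and a median of 0.27. Without filter and bound, 66 genes were lower and 498 higher, with a median of 0.69, since signals at background were then included. The counts of lower and higher genes stayed within 1.5 times of 43 and 42 under the other alternatives, and the median and the host median moved by less than the technical SD. The number of genes well above background stayed within 1.5 times of 470 under each of its 4 alternatives. Of the named genes, 59 moved by more than the technical SD under median scaling and 58 with the spike-ins set equal. The number was 46 under normexp, 27 under cyclic loess, 19 under quantile normalization, and 0 with the deposited table. Rn28s1 turned direction with the spike-ins set equal and was counted apart from the 58. Several of the 58 fell below 0 as well, among them Snhg18, Dleu2, Lockd, Gm5523, Gm6548, Gm8580, Rn4.5s, Rnu12 and Terc. Signal over background limits the dim genes, as the RFF4 array was dimmer.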

Other observations

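The 75 probes with noncoding accessions that matched no named gene were not described above. Of these, 49 were well above background on at least 1 array and 42 had a difference, with 6 lower and 6 higher past 2-fold and a median of 0.09, where 5.05% of all named genes were lower and 12.3% higher.

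Both arrays detected several probes with a noncoding (NR_) accession for 42 member genes, and the probes of a gene differed by a median of 0.38 on the log2 scale. In 4 genes they were more than 1 apart, and in 0 did they pass 2-fold in opposite directions. The widest gap among them was 1.31, for 2810025M15Rik, whose probes had differences of 0.87 and 2.18. Snhg16 followed with 1.23. Probes with a coding (NM_) accession are not in these counts. For Ccl25, a chemokine gene with both kinds of transcript, the NR_ probe had a difference of -1.11 and is among the 43 lower. This probe was dim, and under normexp its difference was 0.025, so its fall depends on the background correction. The far brighter NM_ probe had levels of 4.03 on the Control and 5.83 on the RFF4 array, past 2-fold higher.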
